A study of Mus musculus with 4 samples.

Results

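The genes described here are 9 members of the Janus kinase (JAK) and STAT families of the mouse: Jak1, Jak2, Jak3, Tyk2, Stat2, Stat3, Stat5a, Stat5b and Stat6. They were chosen by name out of 21779 protein-coding genes, and every peak that touched a gene or the 1 kb on either side of it was collected. The libraries are CUT&Tag libraries, in which an antibody directs a transposase to cut and tag the DNA around its target. The cells were primary haematopoietic stem cells of mice carrying wild-type Ppp2ca, taken from bone marrow and prepared at 100000 cells per assay. Of the 4 libraries, 2 were made with an antibody against PPP2CA, a catalytic subunit of PP2A, which removes phosphate from serine and threonine, and 2 with control IgG. Both antibodies were used on wild-type cells, so no library lacks the PPP2CA protein, and neither strain, age nor the sorting scheme is stated in the labels. No label states whether replicates came from separate animals, so differences between replicates may be technical. Cells were assayed in bulk, and a peak carried by few cells cannot be told apart from a weaker one in all cells.

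JAKs are tyrosine kinases bound to the inner part of cytokine receptors. When a cytokine joins its receptor chains, the JAKs activate each other, and the receptor tails they phosphorylate recruit STAT proteins, which are phosphorylated in turn, pair up and move to the nucleus as transcription factors. In blood stem cells this route carries the signals of thrombopoietin, interferons and the interleukin 6 family, among others. The data give the places in the genome marked with the PPP2CA antibody at the genes of these proteins. They do not measure the proteins, their phosphorylation or their binding to DNA.

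The lists held 16811 and 17686 peaks in PPP2CA 1 and 2, and 561 and 310 peaks in IgG 1 and 2. The height of a peak is given as the number of fragments stacked at its summit, recovered from the deposited fold and p-value. The fold is the authors' own value, the summit over a local background, and no label states whether that background came from the same library or from IgG. The median summit held 18 fragments in both PPP2CA libraries and 4 in both IgG libraries, so the control is shallow. The label of the cells was set against marker genes: peaks of both PPP2CA libraries lay at 13 of 20 stem cell genes, 6 of 11 erythroid and megakaryocyte, 3 of 13 myeloid, 3 of 10 stromal and endothelial and 2 of 16 lymphoid genes. The lists differ in median gene length, from 3.87 kb (myeloid) and 10.9 kb (lymphoid) to 35.1 kb (stem cell). Of all protein-coding genes 47.1% had such peaks, 35% of those under 14 kb and 57.8% of those between 14 and 120 kb, so the counts do not settle the label. Kit (38 and 46 fragments) was among the stem cell genes with peaks, while the surface markers Cd34, Slamf1 and Ly6a had none in either library.

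All 9 genes carried a peak in each PPP2CA library, a property of 47.1% of protein-coding genes (10249 of 21779, 95% exact Clopper-Pearson interval 46.4 to 47.7). At 8 of the 9 the peaks of the libraries overlapped each other, against 45.8% of protein-coding genes, and at the same 8 they did so within 1 kb of a gene start, against 42.0% of the 17492 genes with a start in the promoter table. The exception was Stat5b. Longer genes have more room for a peak, and the 9 genes span 14.2 to 113 kb. Of the 10227 genes between 14 and 120 kb, 57.8% had a peak in both libraries. The 9 genes were chosen by name as 1 family, and their count is a description with no test.

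The heights differed widely within the family. Stat3 stood far above the rest, with 208 and 231 fragments in PPP2CA 1 and 2, while the other 8 genes ranged from 13 to 54 fragments. The order by the lower of the 2 libraries was Stat3, Jak1, Jak2, Stat6, Stat5a, Stat2, Jak3, Tyk2 and Stat5b. Stat3 did not overlap Jak1, the next gene. Jak1, Jak2 and Stat6 were not separated, since the values of each overlapped those of its neighbour in the order. A gap followed between Stat6 (40 and 49) and Stat5a (26 and 35). Stat5a, Stat2, Jak3 and Tyk2 overlapped their neighbours, and Stat5b (15 and 13) lay below Tyk2 (29 and 22). The median of the lower value was 26 fragments over the 9 genes and 27 over all 10249 genes with a peak in both libraries. By fragments the family as a whole was thus of ordinary height, and Stat3 was its exception. By fold it was lower, with medians of 5.41 and 5.64 in PPP2CA 1 and 2 against 6.99 and 6.93 over those 10249 genes.

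**Figure D1:**
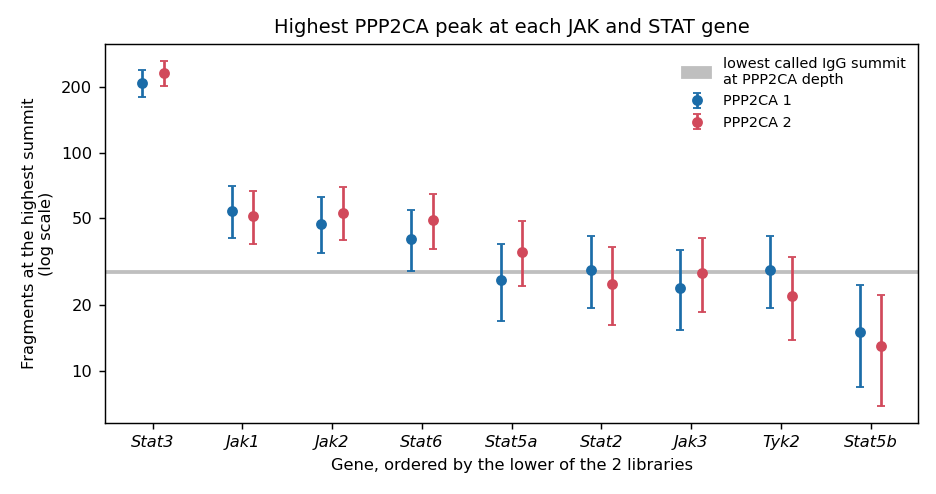
Fragments at the highest summit in the gene plus 1 kb (vertical axis, log scale) for each gene, in PPP2CA 1 (blue) and PPP2CA 2 (red), with exact 95% Poisson intervals that cover counting error only; the grey band is the lowest called IgG summit, 3 fragments, scaled to PPP2CA depth (28.0 to 28.8). Stat3 lies at 208 and 231, and Jak1, Jak2 and Stat6 lie above the band in both libraries. The band is no limit of detection at these genes.

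The promoter sequences of 7 gene starts are shown, each reached by a peak of at least 1 PPP2CA library. Stat3 is shown as the highest, Jak1 and Jak2 as the highest kinase genes, and Stat2 for its repeated IRF and CCAAT letters. Stat5a and Stat5b are neighbours whose peaks differ, and both starts of Stat5b are given. At the upstream Stat5b start the peak, in PPP2CA 2 alone, ended at 100850684. At the downstream start the peak, in PPP2CA 1 alone, ended at 100822579. Most of each printed Stat5b stretch thus lies outside the peak. Each is the 250 bases before a gene start in the RefSeq table of GRCm38.p6, read 5′ to 3′ along transcription, with the letters of any searched motif in capitals. The motifs, searched on both strands, were TTCNNNGAA (the STAT site), GAANNGAA (the IRF core), GGGCGG (the SP and KLF box), CCAAT itself, TATAAA (the TATA box), TGANTCA (AP-1), TGACGTCA (the CRE core), CACGTG (the E-box), CCGGAAG (the ETS core) and GCGCATGCG (the NRF1 core).
Stat3, chr11:100939541-100939790, minus strand: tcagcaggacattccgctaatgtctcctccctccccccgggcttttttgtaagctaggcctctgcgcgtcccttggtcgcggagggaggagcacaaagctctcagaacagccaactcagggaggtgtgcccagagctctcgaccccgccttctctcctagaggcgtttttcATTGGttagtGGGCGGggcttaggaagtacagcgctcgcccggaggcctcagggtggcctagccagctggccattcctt
Jak1, chr4:101265224-101265473, minus strand: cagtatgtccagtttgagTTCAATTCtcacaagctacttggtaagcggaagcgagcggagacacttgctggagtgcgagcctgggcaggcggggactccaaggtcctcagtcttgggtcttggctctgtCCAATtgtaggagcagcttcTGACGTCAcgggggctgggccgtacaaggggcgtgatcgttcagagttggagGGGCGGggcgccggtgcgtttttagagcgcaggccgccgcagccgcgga
Jak2, chr19:29251553-29251802, plus strand: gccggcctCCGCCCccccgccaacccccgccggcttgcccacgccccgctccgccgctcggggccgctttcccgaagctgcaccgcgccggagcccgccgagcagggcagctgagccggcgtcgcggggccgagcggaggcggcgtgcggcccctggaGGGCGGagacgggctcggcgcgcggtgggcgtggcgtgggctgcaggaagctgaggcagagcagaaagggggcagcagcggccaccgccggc
Stat2, chr10:128270248-128270497, plus strand: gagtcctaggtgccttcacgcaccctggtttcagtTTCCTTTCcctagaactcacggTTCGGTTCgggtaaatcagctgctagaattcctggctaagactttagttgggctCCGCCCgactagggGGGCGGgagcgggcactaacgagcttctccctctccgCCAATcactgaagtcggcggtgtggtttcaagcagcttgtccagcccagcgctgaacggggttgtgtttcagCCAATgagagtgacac
Stat5a, second start, chr11:100860234-100860483, plus strand: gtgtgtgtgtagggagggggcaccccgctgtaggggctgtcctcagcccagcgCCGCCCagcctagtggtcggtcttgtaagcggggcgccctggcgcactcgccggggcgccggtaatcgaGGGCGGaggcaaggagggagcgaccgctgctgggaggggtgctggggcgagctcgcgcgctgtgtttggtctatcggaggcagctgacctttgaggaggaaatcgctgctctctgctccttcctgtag
Stat5b, upstream start, chr11:100850582-100850831, minus strand: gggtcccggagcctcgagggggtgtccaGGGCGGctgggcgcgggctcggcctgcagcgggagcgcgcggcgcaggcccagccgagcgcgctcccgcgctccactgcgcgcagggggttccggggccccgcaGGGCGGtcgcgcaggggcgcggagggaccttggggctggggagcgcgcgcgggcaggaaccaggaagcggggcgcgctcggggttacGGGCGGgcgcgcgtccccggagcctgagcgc
Stat5b, downstream start, chr11:100822571-100822820, minus strand: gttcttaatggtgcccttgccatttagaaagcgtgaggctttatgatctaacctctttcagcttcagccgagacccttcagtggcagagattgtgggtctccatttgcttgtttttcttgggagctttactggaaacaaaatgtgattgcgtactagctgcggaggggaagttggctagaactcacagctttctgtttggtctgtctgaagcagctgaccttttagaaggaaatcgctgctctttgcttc

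Stat3 encodes the STAT of the interleukin 6 family and of granulocyte colony-stimulating factor. The gene lies on chromosome 11 at 100886806 to 100939594, on the minus strand. Its main peak ran from 100938851 to 100940083 in PPP2CA 1 and from 100938960 to 100940109 in PPP2CA 2, across the gene start at 100939540. The summit was at the same base in both libraries, 28 bp upstream of the start, between the start and the GGGCGG and CCAAT letters printed above (first bases 69 and 79 bp upstream). The peak held 208 fragments (exact 95% Poisson interval 181 to 238) in PPP2CA 1 and 231 (202 to 263) in PPP2CA 2. It ranked 182 of 16811 and 173 of 17686 by −log10 q, within the top 1.08% and 0.978% of the lists. Of the genes with a peak in both libraries, 2.17% had a summit as high. The fold was 11.04 and 11.2, measured over local backgrounds of 17.9 and 19.6 fragments. Over the lowest background of each list, taken as the level of the whole genome, the summits were 265 and 289 times higher. A lncRNA gene of the opposite strand, Gm46295, overlaps the Stat3 start, and its own start at 100938338 lies outside the peaks.

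Stat3 also had a lower peak that recurred inside the gene. It held 21 fragments in PPP2CA 1 and 24 in PPP2CA 2 and lay 47.5 and 47.7 kb downstream of the start, 5222 and 5084 bp from the end of the gene. The fold was 4.34 and 4.51. This was the only place away from a gene start, among the 9 genes, where the peaks of both libraries overlapped. Exons and introns were not used here.

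The kinase genes were marked at their starts and held 22 to 54 fragments. Jak1 serves the receptors of interferons, interleukin 6 and the common gamma chain. Its gene is on chromosome 4, at 101151974 to 101265282 on the minus strand. It held 54 fragments (41 to 70) in PPP2CA 1 and 51 (38 to 67) in PPP2CA 2, with a fold of 9.15 and 7.95 and summits 1 bp upstream and 98 bp downstream of its start. Jak2, the kinase of the erythropoietin receptor among others, held 47 and 53 fragments with a fold of 8.0 and 7.25, at summits 215 and 144 bp upstream. The gene is on chromosome 19, at 29251803 to 29313095 on the plus strand. Its peaks ran from 29251206 to 29252194 and from 29251225 to 29252361 and were 989 and 1137 bp wide, against medians of 666 and 692 bp in the lists. Both genes were thus in the upper part of the lists, at the top 12% and 15.3% for Jak1 and 16.4% and 16.3% for Jak2.

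The remaining kinase genes were lower. Jak3, which pairs with the common gamma chain and is known mainly from lymphocytes, held 24 and 28 fragments with a fold of 4.83 and 5.17, at summits 13 bp downstream and 12 bp upstream of its start. Jak3 is on chromosome 8, at 71676383 to 71690577 on the plus strand. Tyk2, the kinase of type I interferon and interleukin 12 receptors, held 29 and 22 fragments with a fold of 4.89 and 3.74. Its summit was on the start itself in PPP2CA 1 and 203 bp upstream in PPP2CA 2. Tyk2 is on chromosome 9, at 21104068 to 21131393 on the minus strand, and its peaks ran from 21130877 to 21131456 and from 21130891 to 21131665. For Tyk2 the place in the list moved from the top 41.4% to the top 63.8% between the libraries.

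Peaks further inside the kinase genes did not recur. Jak1 had peaks of 10 and 9 fragments in PPP2CA 1 at 11.3 and 30.5 kb from the start, and a peak of 14 fragments in PPP2CA 2 at 24.7 kb. Jak2 had a peak of 8 fragments at 13.4 kb in PPP2CA 1 alone. None of these overlapped a peak of the other library, and by −log10 q they stood 63.7 to 92% of the way down their lists.

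**Figure D2:**
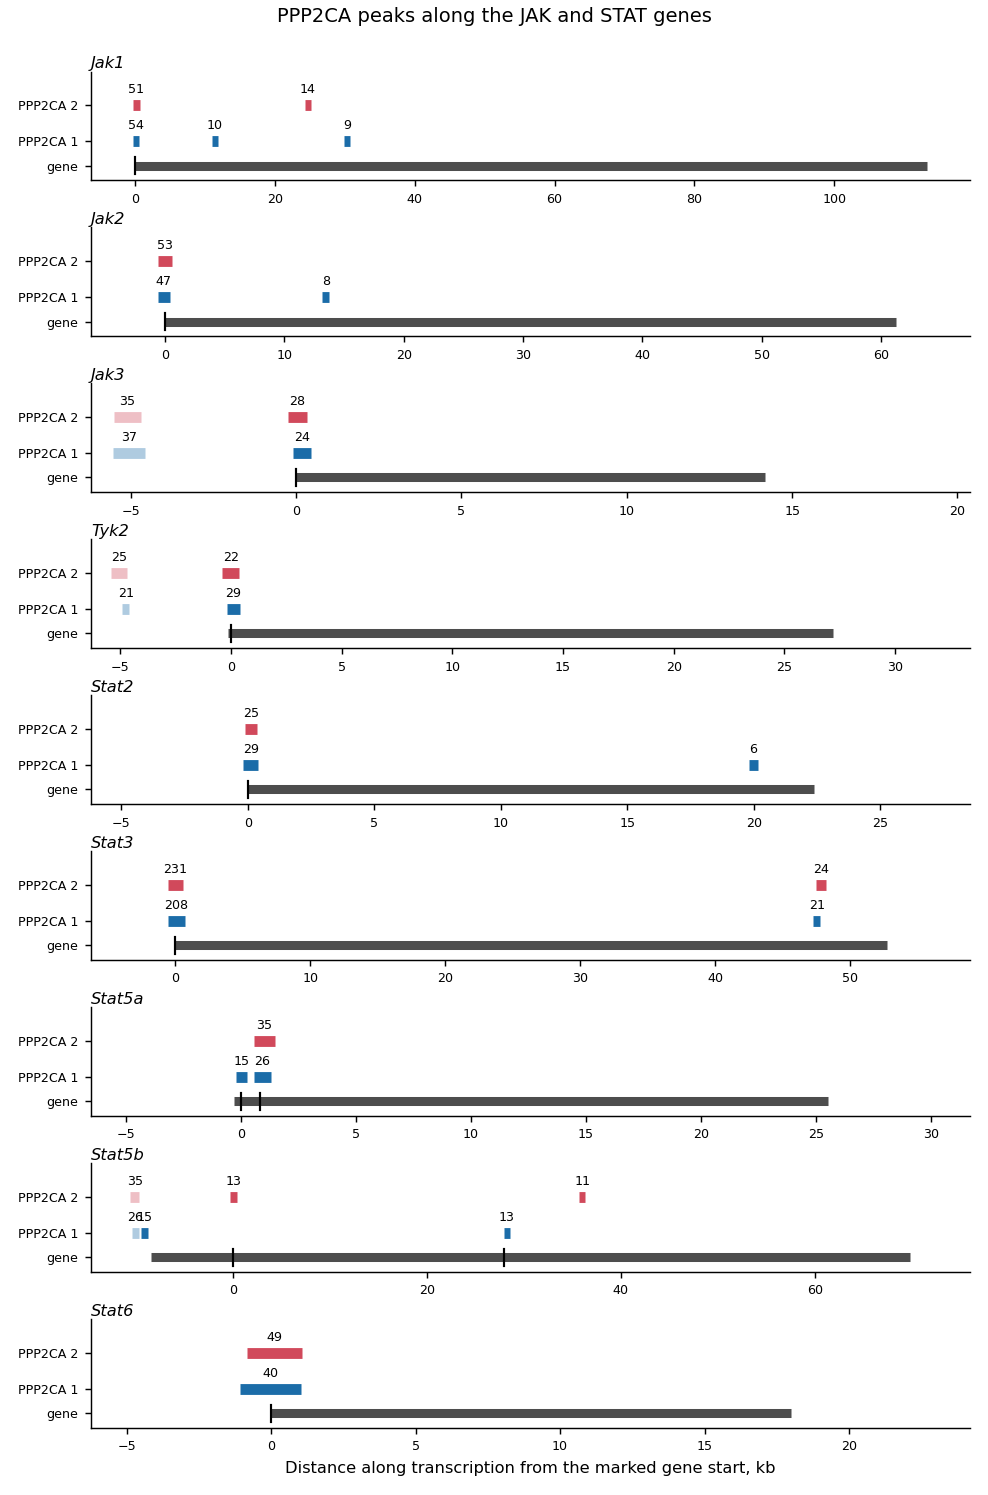
Each panel shows 1 gene from 5 kb before to 5 kb after its ends, with distance from a gene start along transcription in kb; grey bars are genes, black ticks the gene starts, and coloured bars the peaks with their summit fragments (narrow peaks are widened to 0.8% of the gene length, and pale bars lie more than 1 kb outside the gene). Blue and red peaks coincide at a start of every gene but Stat5b, and the peaks inside genes away from a start coincide in Stat3 alone. At the first Stat5a start the PPP2CA 1 peak (15 fragments) has no PPP2CA 2 peak beside it.

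Stat2 (128270498 to 128292853) and Stat6 (127642955 to 127660987) lie on the plus strand of chromosome 10. Stat2, which joins IRF9 in the complex that answers type I interferon, held 29 and 25 fragments at summits 147 bp downstream and 26 bp upstream of its start. Its fold was 8.67 and 6.78 over local backgrounds of only 2.46 and 2.83 fragments. By fold Stat2 therefore lay near Jak2, while by fragments it lay near Jak3, and the order of the family depends on which of these values is read. The Stat2 start overlaps 753 bp of Apof, a neighbouring protein-coding gene, and the peak touches both. A further Stat2 peak of 6 fragments, 19974 bp from the start, was called in PPP2CA 1 alone.

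Stat6, the STAT of interleukins 4 and 13, had the broadest peaks of the family, 2121 bp in PPP2CA 1 and 1895 bp in PPP2CA 2. Only 0.553% and 1.15% of the peaks in the lists were as wide. The summits lay 454 and 457 bp downstream of the start and held 40 and 49 fragments, with a fold of 5.41 and 5.42. At the other 7 genes with a shared peak at a start, its summits lay within 215 bp of that start.

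Stat5a and Stat5b encode close relatives that act downstream of thrombopoietin, erythropoietin and interleukins 2, 3 and 7. They lie side by side on chromosome 11 with 346 bp between their annotated ends, next to Stat3. Stat5b spans 100780731 to 100859004 on the minus strand and Stat5a 100859351 to 100885169 on the plus strand. Stat5a had a peak at its second start, at 100860484, in both libraries, with 26 and 35 fragments, a fold of 5.01 and 5.64 and summits 86 and 90 bp upstream. At its first start, 100859656, a peak of 15 fragments (fold 2.93) was called in PPP2CA 1 alone. That peak also falls within 1 kb of the annotated 5′ end of Stat5b, at 100859004, so it was collected for both genes and is the higher of the Stat5b values in the order above. The promoter table lists no Stat5b start at that end.

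Stat5b had no place in common between the libraries. In PPP2CA 1 its own peak of 13 fragments (fold 4.31) covered the gene start at 100822570, and in PPP2CA 2 a peak of 13 fragments (fold 3.19) covered the start at 100850581. Another peak of 11 fragments, in PPP2CA 2 alone, lay 7994 bp downstream of the nearer start. Of the genes with a peak in both libraries, 2.63% (270 of 10249) shared no place, and among those whose lower summit held 10 to 15 fragments the share was 5.31% (95 of 1790). With 13 fragments the counting interval was 6.92 to 22.2, so neither library shows that the place of the other was unmarked. The 250 bases before the Stat5b start at 100822570 resemble those before the second Stat5a start: 73 of 89 aligned bases matched, the highest alignment score among the 55 pairs of promoters of the 9 genes. In Stat5b the aligned stretch ran from 94 to 3 bases before that start. The PPP2CA 1 peak ended at 100822579, so most of the stretch lay outside it. Whether the resemblance bears on the peak was not tested.

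**Figure D3:**
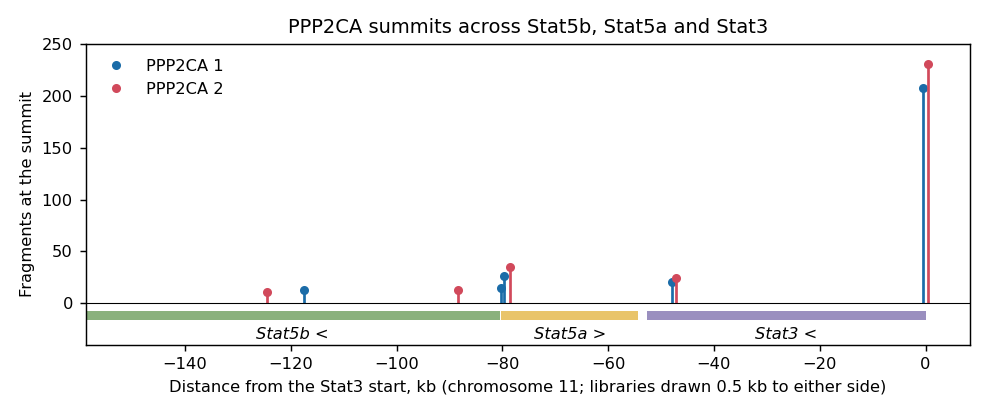
Fragments at every PPP2CA summit across the adjacent genes Stat5b, Stat5a and Stat3 (vertical axis), by distance from the Stat3 start in kb, with genes as coloured bars and the direction of transcription beside the names. The Stat3 start holds 208 and 231 fragments, and no other summit of the cluster is above 35.

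Most of the highest peaks at a gene start had their summit close to it, as at other genes. Only peaks at a start were counted here, so the shares do not show how many peaks lay elsewhere. In PPP2CA 1 the highest peak at a start had its summit within 250 bp of the nearest start at 8 of the 9 genes (88.9%), against 73.2% of the 8019 protein-coding genes with such a peak. In PPP2CA 2 the count was 8 of 9 as well, against 72.8% of 8085 genes, and the exception was Stat6 in both. The 11 listed promoters of the family had a median of 57.6% G and C bases. That lay between promoters with a peak of both libraries, at 62.4%, and those without, at 50.8%. The promoter of Jak2 (80.8%) and the upstream Stat5b promoter (82.0%) were the richest, and the Stat5b promoter at 100822570 the poorest (46.4%). The upstream Stat5b promoter thus had a base composition like that of Jak2 but a peak in PPP2CA 2 alone.

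Motif letters were a description only. The STAT site was in 0 of the 11 promoters, against 6.58% of 21263 promoters of protein-coding genes. The SP and KLF box was in 8 of the 11 promoters, against 42.6% of all promoters and 67.9% of those with a peak of both libraries. CCAAT was in the promoters of Jak1, Stat2, Stat3 and Tyk2 (35.4% of all promoters) and the IRF core in those of Jak1, Stat2 and Stat6 (16.3%). Stat2 held the IRF core at 215 and 193 bp before its start and CCAAT at 88 and 16 bp. Jak1 alone held the CRE core, 101 bp before its start, which 1.92% of promoters hold. The TATA box (11.6% of all promoters), the AP-1 site (6.13%), the E-box (6.63%), the ETS core (8.98%) and the NRF1 core (1.93%) were in none of the 11.

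The PPP2CA libraries were compared with each other at summits within 100 bp, which 6 of the 9 genes had. PPP2CA 2 held 1.09 times the fragments of PPP2CA 1 over the 6930 shared summits. Against that ratio a difference was called at none of the 6 summits (exact binomial test, two-sided, Benjamini-Hochberg adjusted over all shared summits, adjusted p = 1 for each), and the lowest unadjusted exact p was 0.444, at Stat5a. Of all shared summits, 0.0577% (4 of 6930) were called, and 160 had an unadjusted p under 0.05. The test compares these 2 libraries only and says nothing of the spread between animals. Stat2 and Tyk2 had overlapping peaks whose summits lay further apart.

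No IgG peak fell on any of the 9 genes or within 5 kb of them. A peak of either IgG library lay in the gene plus 1 kb at 2.08% of protein-coding genes (452 of 21779), and against a share so low the absence at 9 genes is not a result about them. The IgG libraries were shallow: by the ratio of the lowest backgrounds, 1 IgG fragment stood for 9.34 to 9.61 PPP2CA fragments, and the lowest called IgG summit held 3. Divided by that ratio, the summits came to 22.1 to 24.2 fragments for Stat3 and to 4.25 to 5.78 for Jak1, Jak2 and Stat6. For Stat5a, Stat2, Jak3, Tyk2 and Stat5b they came to at most 3.67, and each of these genes was below 3 in at least 1 library. The value of 3 is the lowest called anywhere in the IgG lists, whose median was 4, and is no limit of detection at the 9 genes. The lists hold no IgG value at the 9 genes, and whether part of the PPP2CA signal does not depend on the antibody was not tested. No permutation test was run, because 2 libraries against 2 allow no two-sided exact p under 0.333.

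**Figure D4:**
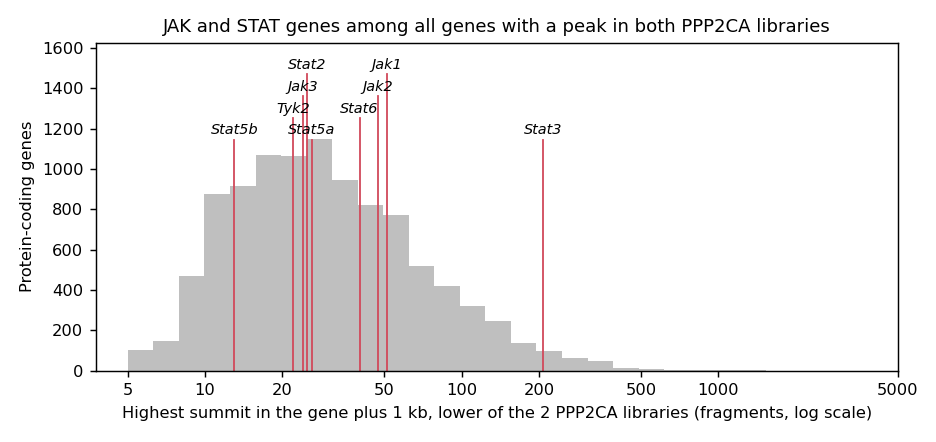
Number of protein-coding genes (vertical axis) by the highest summit in the gene plus 1 kb, as the lower of the 2 PPP2CA libraries (fragments, log scale), over the 10249 genes with a peak in both; red lines mark the JAK and STAT genes. Stat3 is in the upper tail and Stat5b (13) in the lower part, with the other 7 between 22 and 51.

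Around the JAKs and STATs the rest of the pathway was described by its roles, from 5 lists, each set beside the 47.1% of all protein-coding genes with a peak in both PPP2CA libraries. The lists were chosen with earlier results of these data known, and their counts carry no test. Receptors, with a median length of 24.5 kb, had peaks at 15 of 28 genes, beside 57.8% of all genes between 14 and 120 kb. The highest were Crlf2, the receptor chain of thymic stromal lymphopoietin (185 and 217 fragments), Csf2ra, the alpha chain of the GM-CSF receptor (118 and 133), and Ifngr1, the ligand-binding chain for interferon gamma (75 and 89). The interferon receptor genes Ifnar1 (78 and 65), Ifnar2 (35 and 48), Ifngr1 and Ifngr2 (57 and 68) all had peaks in both libraries. In PPP2CA 2 the Ifnar2 value equalled that of Il10rb, another listed receptor gene (48 fragments, fold 7.62 at both). The 2 genes may thus share 1 peak there. Ligands, the cytokines themselves, had peaks at 5 of 24 genes, led by Lif (36 and 33), Osm (32 and 39) and Il10 (19 and 24). Ligand genes were short, with a median of 5.72 kb, and of all genes under 14 kb 35% had a peak in both libraries.

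The negative regulators of the pathway all had peaks, 20 of 20 genes. Their median length was 31.9 kb and that of the adaptors 49.9 kb, in the range of 14 to 120 kb where 57.8% of all genes had peaks in both libraries. Highest were Sh2b3, the adaptor that restrains thrombopoietin signalling (148 and 175), Ptpn2, a tyrosine phosphatase that acts on JAKs (116 and 125), and Socs1, which blocks JAK activity (71 and 80). Feedback genes of the SOCS family ran down to Socs2, with 11 and 13 fragments. Adaptors and partners had peaks at 13 of 15 genes, led by the chaperone gene Hsp90ab1 (157 and 193), the coactivator gene Ep300 (142 and 204) and Grb2 (71 and 83). Known target genes of STATs had peaks at 15 of the 21 found of 22 listed. Target genes were short, with a median of 6.24 kb, and of all genes under 14 kb 35% had peaks in both libraries. The highest were Junb (443 and 443), Pim1, a kinase gene induced by STATs (314 and 323), and Fos (210 and 230). Summits of target genes with peaks had a median lower value of 51 fragments, against 27 for all genes with peaks. Interferon-induced genes of the list fell on both sides: Irf1 (114 and 119), Irf7 (33 and 45) and Tap1 (55 and 51) had peaks in both libraries, and Ifit3, Isg15 and Oas1a had none in either. Of the genes named here, Ptpn2, Ep300 and Junb also had an IgG peak in the gene plus 1 kb.

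**Figure D5:**
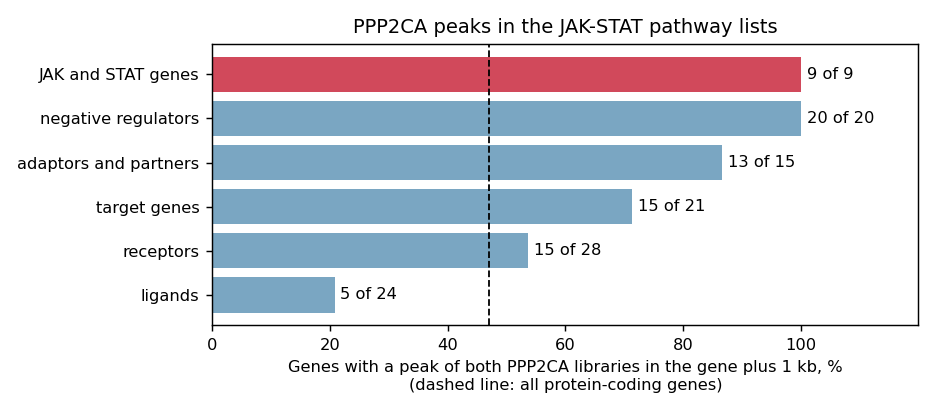
Share of genes with a peak of both PPP2CA libraries in the gene plus 1 kb (horizontal axis, %), with counts beside the bars; the dashed line is the 47.1% of all protein-coding genes. The JAK and STAT genes (9 of 9) and the negative regulators (20 of 20) are at the full share, and ligands (5 of 24) lie below the line.

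The genes most like Stat3 in height and fold, over 4 values from the 2 PPP2CA libraries, were Tmem91 and B9d2, which share a peak of 197 and 236 fragments (fold 11.1 and 11.2), and Insig1 (196 and 236, fold 10.9 and 11.46). Their Euclidean distances from Stat3 on the log2 scale were 0.0856, 0.0856 and 0.0966.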

How the data were processed

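CUT&Tag peak lists of 4 libraries were used, 2 with a PPP2CA antibody and 2 with IgG, grouped by their titles. The authors deposited 1 list per library in the narrowPeak layout. Per the submitters' processing notes the tools were BWA, Trimmomatic, HOMER, MACS2, ChIPseeker and deepTools and the build GRCm38, also named mm10; no role or setting is stated. The deposited columns per peak are a −log10 p, a −log10 q, a score equal to 10 times the −log10 q, and the fold, which is the summit's ratio to a local background. No source states if IgG was the control of the peak calling.

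Summit fragments n and local background b were recovered by taking the fold as (n + 1) / (b + 1) and p as the Poisson chance of more than n. Whole numbers resulted for 100% of peaks, within a relative error of 1e-04. This holds the depth behind each height, and total reads were not used here. Overlap meant at least 1 bp. Genes came from the RefSeq table of GRCm38.p6, without the 394 entries placed below 3 Mb on chromosomes other than Y, and gene starts from its promoter table, which gave all 9 genes at least 1. The 10 motifs were matched exactly in the 250 bases before each start, and promoters were aligned locally with Biopython 1.88. Shared summits were tested with scipy 1.17.1 in Python 3.11.15. The computations were tested on simulated data. Intervals are at 95% and cover counting error only, since PCR copies are not independent molecules.

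Named were the 9 genes, the 3 highest genes of each pathway list, genes whose start lies in a peak of the 9, and the 3 genes nearest to the highest member. Other pathway and marker genes, and neighbours overlapping a member, were named after their values were seen. Members and lists were chosen with earlier results of these data known. Alternatives covered the window, overlap, peak thresholds, IgG peaks and each library.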

Additional observations from a re-analysis of the deposited data

How the results depend on the processing

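The count of genes with a peak in both PPP2CA libraries was 9 of 9, or 8 of 9 in the 4 alternatives named here that drop Stat5b. Keeping only peaks with −log10 q at or above 5 left 8 of 9, beside 39.9% of all protein-coding genes, and keeping summits of at least 20 fragments left 8 of 9 beside 30.5%. With peaks of the libraries that overlap each other it was 8 of 9 beside 45.8%, and with such peaks within 1 kb of a start 8 of 9 beside 40.8%, where genes without a listed start were tested at both ends. These last 2 settings were chosen after seeing the data. It stayed 9 of 9 with the gene body alone (45.3% of all genes), with 5 kb on each side (50.8%) and with 1 kb around the gene start (41.1%). Without 1 of the PPP2CA libraries it was 9 of 9, beside 51.5 to 52.4% of genes. Of 30 alternatives of the pathway list counts, 29 were within 1.5 times the count given, and ligands fell to 2 of 24 with 20 or more summit fragments. No IgG peak lay at the 9 genes under any of the 4 IgG alternatives. The shared summits called between libraries were 3 or 4 in every setting, with none at the 9 genes. Choosing the highest peak by fold changed only Stat5b, to 13 and 11 fragments. The low IgG depth limits what the absence of IgG peaks shows, most of all at Stat5a, Stat2, Jak3, Tyk2 and Stat5b. It is also a limit at Jak1, Jak2 and Stat6. Their summits, scaled to IgG depth, came to 4.25 to 5.78 fragments, near the median called IgG summit of 4. No paired analysis was possible because the results come from no test between PPP2CA and IgG, and a list gives no value at places without a peak.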

Other observations

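Receptors of blood growth factors differed in their peaks. Il7r, which encodes the alpha chain of the interleukin 7 receptor, had no peak in either PPP2CA library, and Csf3r, the receptor gene for granulocyte colony-stimulating factor, had 9 fragments in PPP2CA 2 alone. Epor, the erythropoietin receptor gene, held 11 and 6 fragments and Csf2rb, the shared beta chain, 13 and 9. Il6st, which encodes the signalling chain of the interleukin 6 family upstream of STAT3, held 21 and 19 fragments, far below the 208 and 231 at Stat3. The gap was smaller by fold, 8.01 and 6.74 at Il6st against 11.04 and 11.2 at Stat3.

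Just outside the window, peaks of both libraries overlapped upstream of Tyk2 (21 and 25 fragments, at 4789 and 5092 bp before its start) and upstream of Jak3 (37 and 35 fragments, at 4873 and 4763 bp). At Jak3 this place was higher by fragments than the peak at the gene start in both libraries. By fold it was higher in PPP2CA 1 (5.29 against 4.83) and lower in PPP2CA 2 (4.17 against 5.17).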
